A study of Mus musculus with 9 samples.

Results

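ISG15 is a small ubiquitin-like protein that cells make in response to interferon, and the genes described here are Isg15 itself and the genes of the enzymes that attach it to other proteins and take it off again. These are 5 genes of the 50686 in the count tables, chosen by name: Isg15, the modifier; Uba7, the E1 enzyme that activates it; Ube2l6, the E2 enzyme that carries it; Herc6, the E3 ligase that places it on targets in mouse cells; and Usp18, the protease that removes it. All 5 passed the filter on low counts and were among the 13852 genes tested. Conjugation runs like that of ubiquitin, with the modifier handed from E1 to E2 and, with the help of the E3, onto a lysine of the target. Type I interferon induces all of these genes through factors that bind DNA elements called ISREs. The product of Usp18 also sits at the interferon receptor, where it restrains signalling independently of its protease activity.

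RNA-seq was performed on mRNA of bone marrow cells of C57BL/6N background that had been transformed with BCR/ABLp185, the oncogene of a B-lymphoid leukemia. The lines were wt, Stat5a-/- (lacking the transcription factor STAT5A) and Stat5b-/- (lacking its close relative STAT5B), with BCR/ABLp185 carried by all of them and no interferon or drug named as added to the medium. There was 1 line of each genotype, sequenced as 3 technical replicates, so that the tests below measure the spread between libraries of a line, and genotype and line cannot be told apart. Totals lay between 11948136 and 19016396 counted reads per library.

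The titles and genotype labels gave the groups, whereas the description of the knockout samples reads as wt, and the knocked-out genes were therefore examined before the rest. Stat5a had 759, 713 and 784 reads in the wt libraries and 169, 146 and 151 in the Stat5a-/- libraries. Stat5b had 1685, 2045 and 1841 reads in wt and 1055, 856 and 781 in Stat5b-/- libraries. Each was lower in the line labelled as its knockout, with a log2 fold change compared to wt of -1.80 for Stat5a (SE 0.14, adjusted p = 4.69e-07, edgeR's quasi-likelihood test) and -0.73 for Stat5b (SE 0.11, adjusted p = 1.69e-04), and in both cases reads remained. Each was higher in the other knockout line than in wt, Stat5a by 0.96 in Stat5b-/- (adjusted p = 5.95e-05) and Stat5b by 0.43 in Stat5a-/- cells (adjusted p = 0.00942). Of 12 B-lineage markers, all were detected, and their sum ran from 6525 to 7098 normalized CPM (counts scaled to a common library total) in wt libraries, from 8929 to 9819 in Stat5a-/- libraries and from 7810 to 8915 in Stat5b-/- libraries. Of these markers 6 were called higher and 3 lower in Stat5b-/- against wt, and 8 higher and 2 lower in Stat5a-/- against wt, by edgeR's quasi-likelihood test. The shares of all genes called higher and lower were 24.2% and 22.0% in the first comparison and 19.8% and 16.3% in the second. Cd79a, a signalling chain of the B-cell receptor, rose by 1.09 and 0.83 on the log2 scale. Rag1 and Rag2, which cut DNA at immunoglobulin genes in B-cell precursors, fell in both knockout lines, from 64.7 and 32.5 normalized CPM in wt to less than 1 normalized CPM. All 16 T-lineage markers were detected as well, and their sum was 717, 1030 and 941 normalized CPM in the wt libraries, 1258, 1260 and 1052 in the Stat5a-/- libraries and 2355, 1560 and 2206 in the Stat5b-/- libraries. In bulk RNA, a change in the share of cells that express a gene and a change in its RNA per cell cannot be told apart.

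The sequences before the start sites of Isg15, Uba7, Ube2l6 and Herc6, which all rose in Stat5b-/- cells, are shown as a description. Whether interferon acted through ISREs in these lines was not tested. RefSeq promoter windows of GRCm38.p6, 250 bases before and 50 after each start, were searched on both strands for the ISRE core GAAANNGAAA, for the GAS core TTCNNNGAA bound by STAT dimers and for the shorter IRF core AANNGAAA. The IRF core was added after the windows had been read, and every ISRE core contains an IRF core. Windows were matched for 4 of the 5 genes, and Usp18 had none. Printed 5′ to 3′ on the strand of the gene, with matches in capitals, are the 140 bases before the start of Isg15 (chr4:156200819-156200958, minus strand), Ube2l6 (chr2:84798688-84798827, plus strand) and Herc6 (chr6:57580852-57580991, plus strand), and 30 bases around the match near Uba7 (chr9:107975529-107975558, plus strand).
Isg15: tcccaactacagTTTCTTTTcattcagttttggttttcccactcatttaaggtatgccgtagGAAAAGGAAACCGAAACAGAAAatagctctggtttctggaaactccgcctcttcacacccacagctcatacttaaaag
Uba7: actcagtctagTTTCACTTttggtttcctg
Ube2l6: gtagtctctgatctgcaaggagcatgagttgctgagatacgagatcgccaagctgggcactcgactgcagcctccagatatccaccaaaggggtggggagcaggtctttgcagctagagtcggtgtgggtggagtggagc
Herc6: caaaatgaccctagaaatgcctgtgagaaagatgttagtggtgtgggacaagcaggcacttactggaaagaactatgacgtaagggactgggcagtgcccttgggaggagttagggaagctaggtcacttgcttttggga

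The Isg15 window held 3 overlapping ISRE cores, which begin 78, 72 and 66 bases before the start and make up the long run of capitals. An ISRE core is found in 3.44% of the 32851 windows of the table. Isg15 also had an IRF core outside this run, 128 bases before the start on the other strand. The Uba7 window held 1 IRF core, 27 bases before the RefSeq start, which lies downstream of the start of Uba7 in the deposited tables, so that this match falls within the gene as counted. It is a motif that 23.92% of all windows hold. None of the motifs was in the Ube2l6 and Herc6 windows, and the GAS core, present in 8.3% of all windows, was in none of the 4. These counts describe letters in short windows and say nothing of binding.

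All 5 genes rose in Stat5b-/- compared to wt cells, between 2.22-fold for Herc6 and 5.20-fold for Isg15. In Stat5a-/- cells 3 of the 5 rose compared to wt, each by less than 2-fold, and 4 of the 5 were higher in Stat5b-/- than in Stat5a-/- cells. Genes were called at a Benjamini-Hochberg adjusted p under 0.05 in edgeR's quasi-likelihood test over all 13852 genes. By that rule 24.2% of all genes were called higher and 22.0% lower in Stat5b-/- against wt, 19.8% higher and 16.3% lower in Stat5a-/- against wt, and 16.4% higher and 17.5% lower in Stat5b-/- against Stat5a-/-. With a log2 fold change over 1 required as well, the counts were 5 of 5 in Stat5b-/- against wt, 0 of 5 in Stat5a-/- against wt and 4 of 5 in Stat5b-/- against Stat5a-/-, beside 10.6%, 7.75% and 4.81% of all genes. The median log2 fold change of the 5 genes was 1.99, 0.60 and 1.20 in these comparisons, and that of all genes 0.023, 0.0099 and 0.020. In each comparison all 3 libraries of the first line lay above all 3 of the other for all 5 genes, which also held for 27.4% of all genes in Stat5b-/- against wt, 25.5% in Stat5a-/- against wt and 22.3% in Stat5b-/- against Stat5a-/-. Both comparisons with wt share the wt libraries.

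**Figure D1:**
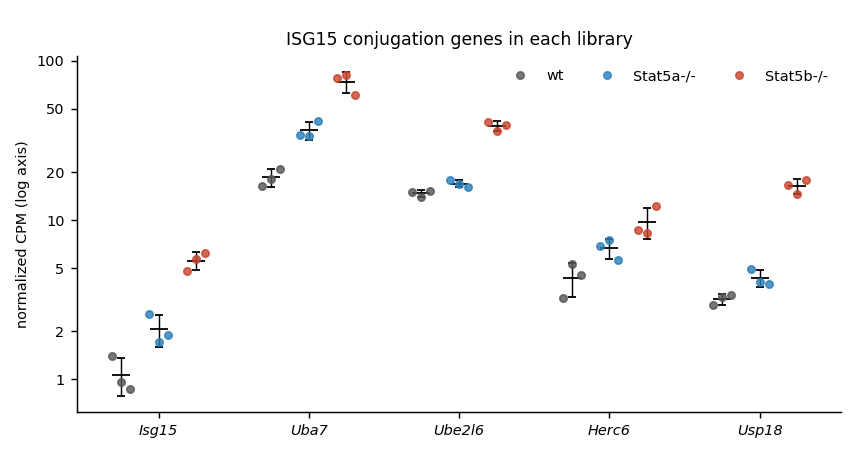
Normalized CPM (library-scaled counts with TMM factors, log axis) of the 5 genes in each of the 9 libraries, with points for libraries and black bars for the mean and SD of 3 libraries. Stat5b-/- libraries lie above those of both other lines for every gene, and Uba7 is the gene with the most reads in Stat5b-/- (73.7 normalized CPM) and Isg15 the gene with the fewest (5.57).

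Isg15 (ENSMUSG00000035692.6, GRCm38 chromosome 4 from 156199424 to 156200818, minus strand, 756 bases of exon) had 22, 19 and 15 reads in the wt libraries, 37, 21 and 21 in the Stat5a-/- libraries and 70, 83 and 82 in the Stat5b-/- libraries. The lines followed each other in that order without overlap after scaling, and the wt counts are small enough that single reads matter. In normalized CPM, wt cells had 1.07 ± 0.283, Stat5a-/- cells 2.06 ± 0.463 and Stat5b-/- cells 5.57 ± 0.728 (SD, n = 3). Against wt, the log2 fold change of Stat5b-/- cells was 2.38 (SE 0.24, adjusted p = 4.28e-06, edgeR's quasi-likelihood test), which ranked 287 from the highest of the 13852 genes. In Stat5a-/- against wt it was 0.96 (SE 0.28, adjusted p = 0.0152). This call rests on few libraries, since the adjusted p was 0.0557 without wt replicate 2, 0.0648 without wt replicate 3 and 0.0964 without Stat5a-/- replicate 1. Stat5b-/- exceeded Stat5a-/- by 1.41 on the log2 scale (SE 0.23, adjusted p = 4.40e-04).

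Uba7 (ENSMUSG00000032596.14, chromosome 9 from 107975505 to 107984060, plus strand, 6692 bases of exon) had 257, 360 and 365 reads in wt, 487, 413 and 465 in Stat5a-/- and 1142, 1194 and 805 in Stat5b-/- libraries. Its normalized CPM stepped up from wt to Stat5a-/- and again to Stat5b-/-, at 18.5 ± 2.40, 36.5 ± 4.68 and 73.7 ± 10.9 (SD, n = 3). Uba7 was the member with the firmest rise in Stat5a-/- cells, of 0.98 on the log2 scale (SE 0.15, adjusted p = 1.47e-04, edgeR's quasi-likelihood test), which was called under each of the 18 alternatives of the analysis. The log2 fold change was 1.99 in Stat5b-/- against wt (SE 0.15, adjusted p = 1.76e-07) and 1.01 in Stat5b-/- against Stat5a-/- (SE 0.14, adjusted p = 1.22e-04). Of its exon bases, 233 are shared with Gm20661 on the same strand, and reads that touch exons of both genes are left out by the counter's default.

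Ube2l6 (ENSMUSG00000027078.14, chromosome 2 from 84798828 to 84810335, plus strand, 1996 bases of exon) had 235, 277 and 265 reads in wt, 255, 207 and 180 in Stat5a-/- and 604, 528 and 516 in Stat5b-/- libraries. The Stat5b-/- libraries stood well above the other 6, while the Stat5a-/- libraries lay just above wt, at 17.0 ± 0.808 against 14.7 ± 0.676 normalized CPM, with 38.9 ± 2.68 in Stat5b-/- cells (SD, n = 3). The log2 fold change was 1.40 in Stat5b-/- against wt (SE 0.11, adjusted p = 3.09e-07, edgeR's quasi-likelihood test) and 1.20 in Stat5b-/- against Stat5a-/- (SE 0.11, adjusted p = 2.83e-06). In Stat5a-/- against wt it was 0.21 with an adjusted p of 0.178, and the 95% confidence interval ran from -0.037 to 0.45.

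Herc6 (ENSMUSG00000029798.11, chromosome 6 from 57581000 to 57664632, plus strand, 9292 bases of exon) had 51, 105 and 78 reads in wt, 98, 92 and 62 in Stat5a-/- and 126, 122 and 161 in Stat5b-/- libraries. Its value in Stat5b-/- against wt was the lowest of the 5, and the lines followed each other without overlap, at 4.35 ± 1.04, 6.64 ± 0.965 and 9.75 ± 2.18 normalized CPM (SD, n = 3). The log2 fold change was 1.15 in Stat5b-/- against wt (SE 0.21, adjusted p = 6.88e-04, edgeR's quasi-likelihood test) and 0.60 in Stat5a-/- against wt (SE 0.22, adjusted p = 0.0487). The rise in Stat5a-/- cells lost its call under 9 of 18 alternatives, RLE normalization among them (adjusted p = 0.0501), without wt replicate 1 or 3 (0.152 and 0.10), without Stat5a-/- replicate 1 or 2 (0.125 and 0.161) and without Stat5b-/- replicate 1 or 2 (0.0576 and 0.0544). The value itself moved furthest with the summed T-lineage markers as a covariate, to a log2 fold change of 0.27 (adjusted p = 0.399). In Stat5b-/- against Stat5a-/- the log2 fold change was 0.55 (95% confidence interval 0.087 to 1.00, adjusted p = 0.0636) and was not called. It was called under 3 of 18 alternatives, among them without wt replicate 1 (adjusted p = 0.0446), and turned to -0.082 with that covariate. With the same covariate, the log2 fold change of Herc6 between Stat5b-/- and wt was 0.19 (adjusted p = 0.807), whereas the other 4 genes kept their calls in that comparison. Of the exon bases of Herc6, 1269 are shared with Gm45193 on the same strand.

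Usp18 (ENSMUSG00000030107.10, chromosome 6 from 121245906 to 121270917, plus strand, 2790 bases of exon) had 46, 65 and 59 reads in wt, 71, 50 and 44 in Stat5a-/- and 242, 213 and 236 in Stat5b-/- libraries. Like Ube2l6, the protease stood apart in Stat5b-/- cells, at 16.4 ± 1.72 normalized CPM (SD, n = 3), and was close to wt in Stat5a-/- cells, at 4.33 ± 0.549 against 3.20 ± 0.254. The log2 fold change was 2.35 in Stat5b-/- against wt (SE 0.16, adjusted p = 7.64e-08, edgeR's quasi-likelihood test) and 1.91 in Stat5b-/- against Stat5a-/- (SE 0.16, adjusted p = 1.11e-06). In Stat5a-/- against wt the log2 value was 0.44 (95% confidence interval 0.060 to 0.82, adjusted p = 0.0680), and a GC offset, a correction for the base composition of each gene, brought the adjusted p to 0.0302. An antisense gene, Gm44148, shares 124 of its exon bases, and the deposited counts were made without strand.

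**Figure D2:**
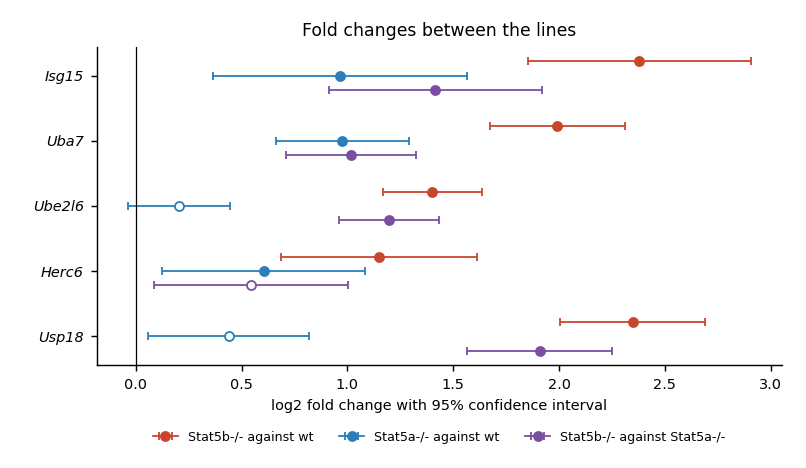
Log2 fold change (x axis) of each gene in the 3 comparisons, with bars for the 95% confidence interval and filled circles for an adjusted p under 0.05. The Stat5b-/- against wt values run from 1.15 (Herc6) to 2.38 (Isg15), and the Stat5a-/- against wt values all lie below 1.

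The mean level of 15 of the 16 T-lineage markers was lowest in wt and highest in Stat5b-/- cells, the exception being Cd28, with its lowest level in Stat5a-/- cells. By the test 15 of 16 were called higher and 0 lower in Stat5b-/- against wt, beside 24.2% and 22.0% of all genes, with a median log2 fold change of 1.17. Zap70, a kinase of the T-cell receptor, rose by 2.34, its adaptor Lat by 1.79 and the surface protein Cd5 by 1.34 on the log2 scale in that comparison. In Stat5a-/- against wt 6 of 16 were called higher, and in Stat5b-/- against Stat5a-/- 15 of 16, beside 19.8% and 16.4% of all genes. The count of 6 was 2 without wt replicate 1 or Stat5a-/- replicate 1 or 2, and 3 without wt replicate 3, and it was 10 without a filter on low counts. Within Stat5b-/- cells the library with the lowest T-lineage sum, replicate 2 with 1560 normalized CPM, had 5.67 normalized CPM of Isg15 and 81.6 of Uba7, each within or above the range of the other 2 libraries, and the lowest value of the 3 for Ube2l6 (36.1), Herc6 (8.34) and Usp18 (14.6). With the marker sum as a covariate, the log2 fold change between Stat5b-/- and wt was 2.76 for Isg15, 2.19 for Uba7, 1.20 for Ube2l6 and 1.85 for Usp18, with adjusted p-values between 0.00139 and 0.00690 in edgeR's quasi-likelihood test.

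Levels of different genes were compared as normalized CPM per kilobase of exon. The order was the same in all lines, Ube2l6 before Uba7, Isg15, Usp18 and Herc6. In wt cells the means per kilobase were 7.38 for Ube2l6, 2.77 for Uba7, 1.42 for Isg15, 1.15 for Usp18 and 0.468 for Herc6, and in Stat5b-/- cells 19.5, 11.0, 7.37, 5.87 and 1.05. Neighbours in this order did not overlap between libraries, except Isg15 and Usp18, whose libraries overlapped in wt and in Stat5b-/- cells and not in Stat5a-/- cells (2.73 and 1.55 per kilobase). The E2 thus had the highest RNA level per length in every line and the E3 the lowest.

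How the RNA of the modifier changed relative to that of each enzyme was described by the log2 ratio of Isg15 to the enzyme within a library, from counts per kilobase of exon, which does not depend on library scaling. Isg15 was higher relative to Ube2l6 in both knockout lines, with log2 ratios of -1.99, -2.43 and -2.70 in the wt libraries, -1.37, -1.87 and -1.67 in the Stat5a-/- libraries and -1.70, -1.26 and -1.25 in the Stat5b-/- libraries. The libraries of wt lay below those of both knockout lines, by 0.97 for Stat5b-/- and 0.74 for Stat5a-/- (exact permutation p = 0.1 each, two-sided, the smallest that 3 against 3 allows, and 0.24 after Benjamini-Hochberg adjustment over the 12 ratio comparisons). Relative to Herc6, Isg15 was at 2.83 ± 0.213 in Stat5b-/- cells (SD, n = 3), 1.94 ± 0.376 in Stat5a-/- and 1.63 ± 0.691 in wt cells. Here the Stat5b-/- libraries lay above those of both other lines, by 1.20 over wt and 0.89 over Stat5a-/- (exact p = 0.1 each, adjusted 0.24).

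Relative to Usp18, wt cells had a log2 ratio of Isg15 of 0.31 ± 0.470, Stat5a-/- cells 0.81 ± 0.152 and Stat5b-/- cells 0.33 ± 0.216 (SD, n = 3). The difference between Stat5b-/- and wt was 0.027 (exact permutation p = 1), and the Stat5a-/- libraries lay above the Stat5b-/- libraries, which were lower by a difference of -0.48 (exact p = 0.1, adjusted 0.24). The libraries of Stat5a-/- and wt overlapped, with a difference of 0.51 (exact permutation p = 0.3). Relative to Uba7, the lines overlapped in every comparison, with differences of 0.38, -0.039 and 0.42 in Stat5b-/- against wt, Stat5a-/- against wt and Stat5b-/- against Stat5a-/- (exact p = 0.4, 0.9 and 0.3). With 3 libraries a line, none of the 12 comparisons could have passed 0.05.

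**Figure D3:**
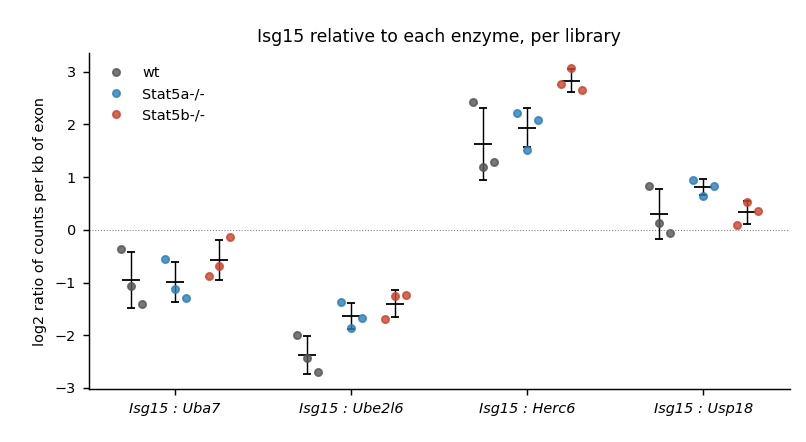
Log2 ratio of Isg15 to Uba7, Ube2l6, Herc6 and Usp18 (y axis, counts per kilobase of exon) in each library, with black bars for the mean and SD of 3 libraries. Ratios to Ube2l6 are lowest in wt (mean -2.37) and ratios to Herc6 are highest in Stat5b-/- (mean 2.83). The mean ratio to Usp18 is highest in Stat5a-/- (0.81), whose libraries overlap with those of wt.

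Other proteins have been linked to ISG15 in human or mouse cells, namely further ligases (Trim25, Arih1), further E2 enzymes (Ube2e1, Ube2e2), proteases that can act on it (Usp2, Usp5, Usp13, Usp14, Usp16) and the integrin LFA-1, through which free ISG15 outside cells acts on lymphocytes (Itgal and Itgb2). Of these 11 genes 9 were tested, and they moved in both directions. In Stat5b-/- against wt 4 were called higher and 2 lower, beside 24.2% and 22.0% of all genes, with a median log2 fold change of -0.11. In Stat5a-/- against wt 3 were higher and 1 lower, beside 19.8% and 16.3% of all genes. In Stat5b-/- against Stat5a-/- 1 was higher and 2 lower, beside 16.4% and 17.5%. The counts in Stat5a-/- against wt were 5 higher without Stat5b-/- replicate 3, and 0 lower without wt replicate 3 or Stat5a-/- replicate 2 and with the T-lineage covariate. The 1 higher in Stat5b-/- against Stat5a-/- was Itgb2, which lost its call under 10 of 18 alternatives. With the T-lineage covariate the counts in Stat5b-/- against wt were 2 higher and 1 lower.

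Itgal had the largest log2 fold change of the 9 in both lines against wt. This gene of the alpha chain of LFA-1 went from 34.4 normalized CPM in wt to 254 in Stat5a-/- and 267 in Stat5b-/- cells, with log2 fold changes of 2.88 (SE 0.15, adjusted p = 5.42e-09) and 2.96 (SE 0.15, adjusted p = 4.16e-09) in edgeR's quasi-likelihood test. Itgb2, its beta chain, rose by 0.60 in Stat5a-/- and 0.90 in Stat5b-/- cells. Trim25 rose in both lines as well, by 0.67 in Stat5a-/- (adjusted p = 3.26e-04) and 0.54 in Stat5b-/- cells (adjusted p = 0.00134).

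Of the proteases, Usp2 fell from 7.24 normalized CPM in wt to 4.94 in Stat5a-/- and 2.85 in Stat5b-/- cells, a log2 fold change of -1.34 in the latter (adjusted p = 6.36e-05, edgeR's quasi-likelihood test). Usp14, which otherwise trims ubiquitin at the proteasome, fell by 0.67 on the log2 scale in Stat5b-/- cells, and its value in Stat5a-/- cells was 0.30 (adjusted p = 0.0508). Usp5, which takes apart free ubiquitin chains, rose by 0.37 in Stat5b-/- cells (adjusted p = 0.0326). Usp16 had -0.28 and -0.061 in Stat5b-/- and Stat5a-/- against wt, Arih1 -0.11 and -0.10, and Ube2e1 -0.15 and 0.12, none of which passed the test. Usp13 and Ube2e2 had too few reads to be tested.

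Proteins known to carry ISG15 were followed as a list of 20 genes, all of them tested. In Stat5b-/- against wt 11 were called higher and 2 lower, beside 24.2% and 22.0% of all genes, with a median log2 fold change of 0.35. In Stat5a-/- against wt 5 were higher and 3 lower. The counts in Stat5a-/- cells are shares close to the 19.8% and 16.3% of all genes called higher and lower in that comparison. The count of 2 lower fell to 1 without wt replicate 3, and that of 3 lower to 1 without wt replicate 2 or 3, without Stat5a-/- replicate 2 or 3 and without Stat5b-/- replicate 2. Ifit3, Mx1 and Ifit1 changed most in Stat5b-/- cells. Ifit3, which stabilizes the binding of IFIT1 to viral RNA, had a log2 fold change of 2.07 (SE 0.27, adjusted p = 3.84e-05, edgeR's quasi-likelihood test), the GTPase Mx1 of 2.02 (SE 0.32, adjusted p = 2.10e-04) and Ifit1 of 1.74 (SE 0.22, adjusted p = 3.44e-05). With the T-lineage covariate 4 of the 20 were called higher in Stat5b-/- against wt and 0 lower.

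The genes of the interferons themselves gave almost no reads. Over 20 interferon genes of types I, II and III the 9 libraries held 9 reads in all, on 3 genes, with at most 3 reads in a library. By contrast, the receptor and the factors that act on ISG15 genes were well measured. Of 11 such genes, 9 were called higher and 1 lower in Stat5b-/- against wt, 3 higher and 1 lower in Stat5a-/- against wt, and 8 higher and 1 lower in Stat5b-/- against Stat5a-/-. The shares of all genes called higher and lower were 24.2% and 22.0%, 19.8% and 16.3%, and 16.4% and 17.5%. The 1 lower became 0 without wt replicate 1 or 3 or Stat5b-/- replicate 3 in the first of these comparisons, and without any wt replicate, Stat5a-/- replicate 2 or 3 or Stat5b-/- replicate 2, without a filter and with the replicate block in the second, where it was 2 with the GC offset. With the T-lineage covariate 4 were called higher in Stat5b-/- against wt. Irf7 rose by 2.34, Irf1 by 1.61 and Irf9 by 1.38 on the log2 scale in Stat5b-/- cells. In Stat5a-/- cells Irf7 rose by 1.02 and Irf1 by 0.99, and Irf9, a DNA-binding factor of the interferon response, had a value of 0.24 (adjusted p = 0.105, edgeR's quasi-likelihood test).

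Other ubiquitin-like modifiers use enzymes built like those of ISG15, and their genes were set beside them. Of 17 SUMO genes 5 were called higher and 2 lower in Stat5b-/- against wt, of 9 NEDD8 genes 0 higher and 3 lower, and of 7 UFM1 genes 0 higher and 3 lower. Of all genes 24.2% were called higher and 22.0% lower in that comparison, so the SUMO share called higher is close to that of all genes. The NEDD8 and UFM1 counts rest on few genes. For FAT10, another modifier that interferon induces, the modifier gene Ubd had hardly any reads, and of its enzymes Uba6 fell by 0.44 (adjusted p = 0.0415, edgeR's quasi-likelihood test). The counts in Stat5a-/- against wt were 2 higher and 2 lower for SUMO, 1 higher and 1 lower for NEDD8 and 0 higher and 2 lower for UFM1 genes, beside 19.8% and 16.3% of all genes. The 1 NEDD8 gene called higher there was the E2 gene Ube2f, with a log2 fold change of 0.98 (adjusted p = 2.43e-06), close to that of Uba7, and it was named after its values were seen. Several of these counts rested on single libraries. In Stat5b-/- against wt the 5 SUMO genes higher were 2 without Stat5b-/- replicate 1 and 3 without Stat5b-/- replicate 2 or any wt replicate, the 2 lower were 4 without Stat5a-/- replicate 3, and the 3 UFM1 genes lower were 1 without wt replicate 2 or Stat5b-/- replicate 2. Uba6 lost its call without wt replicate 2 or 3, without Stat5b-/- replicate 1 or 2 and with the replicate block. The 2 SUMO genes higher in Stat5a-/- against wt were 0 without wt replicate 3 or Stat5a-/- replicate 1 and with the block, and 1 without wt replicate 1 or 2 or Stat5a-/- replicate 2. The 1 NEDD8 gene lower there became 2 without Stat5a-/- replicate 2 or 3 and 3 without Stat5b-/- replicate 1, and the 2 UFM1 genes lower became 1 without wt replicate 3 or Stat5a-/- replicate 1. With the GC offset the counts in Stat5a-/- against wt were larger, at 5 higher for SUMO, 2 higher and 3 lower for NEDD8 and 4 lower for UFM1 genes. With the T-lineage covariate 0 SUMO genes were higher and 0 NEDD8 and UFM1 genes lower in Stat5b-/- against wt. The called values in Stat5b-/- against wt were smaller in size than those of the 5 ISG15 genes, and the largest of the SUMO system were 0.49 for Senp2, 0.47 for Pias3 and 0.47 for Senp7. Those of NEDD8 genes were -0.71 for Ube2m, -0.60 for Senp8 and -0.51 for Nedd8, and those of UFM1 genes -0.81 for Ufsp2 and -0.53 for Ufm1. The closest relatives outside the ISG15 system went the other way, as Uba1, the main E1 of ubiquitin, fell by 0.35 and Ube2l3, the E2 most like Ube2l6, fell by 0.32 in Stat5b-/- cells. Uba1 lost its call without wt replicate 3 (adjusted p = 0.0575) and, with a value of 0.041, with the T-lineage covariate (adjusted p = 0.917), with which Ube2l3 lost its call too (adjusted p = 0.188).

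Relatives of Herc6 did not follow that pattern. Beside 24.2% and 19.8% of all genes, 4 of the 5 HERC genes, Herc6 included, were called higher in Stat5b-/- against wt and 3 in Stat5a-/- against wt. The latter count was 0 without wt replicate 1 or Stat5a-/- replicate 2, and 1 without any other library but Stat5b-/- replicate 3 and with the replicate block, without a filter, with RLE normalization or with the T-lineage covariate. With that covariate the former count was 0. Herc3 rose by 0.96 in Stat5b-/- cells (SE 0.15, adjusted p = 1.59e-04, edgeR's quasi-likelihood test) and Herc1 by 0.74. Herc3 lies on chromosome 6, 1.25 Mb from Herc6, and is also among the neighbours of Herc6 counted below. Its family and its region cannot be told apart here.

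**Figure D4:**
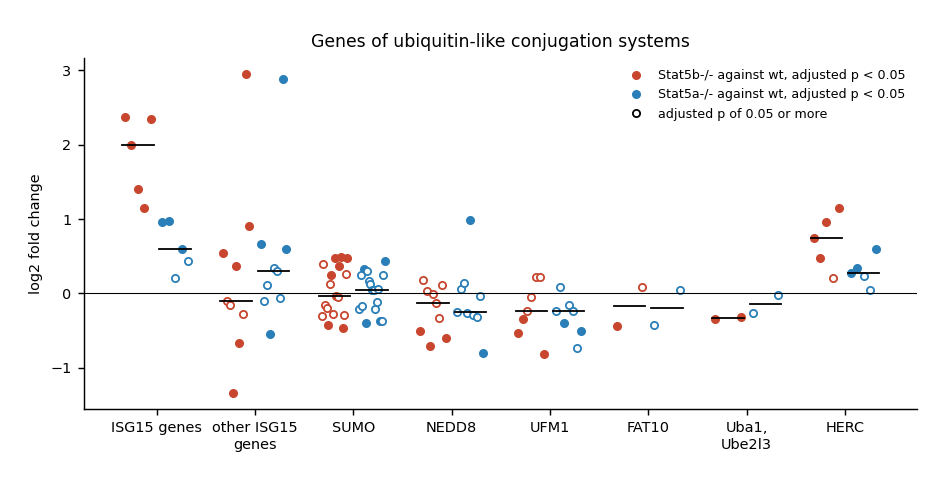
Log2 fold change (y axis) of each tested gene of ubiquitin-like systems in Stat5b-/- against wt (red) and Stat5a-/- against wt (blue), filled at an adjusted p under 0.05, with black lines for medians. The 5 ISG15 genes have a median of 1.99 in Stat5b-/- against wt, while the medians of the SUMO, NEDD8, UFM1 and FAT10 genes lie between -0.24 and -0.036.

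The genes lie on 4 chromosomes, and their neighbours were examined within 2 megabases. Around Isg15, Uba7, Ube2l6 and Usp18 the median log2 fold change of the neighbours in Stat5b-/- against wt was 0.031 over 45 genes, -0.012 over 88, -0.013 over 21 and -0.15 over 32. Herc6 differed, with a median of 0.50 over 13 neighbours, 8 of them called higher, Herc3 included, and 1 lower. No neighbour had a higher value than Herc6. Chromosome 6, which holds Herc6 and Usp18, had 36.4% of its 693 tested genes other than Herc6 called higher in Stat5b-/- against wt. The share was 24.2% over all genes, and 20.3%, 26.4% and 20.7% over the other genes on the chromosomes of Isg15, Uba7 and Ube2l6. The part of these chromosome-wide values in the changes of Herc6 and Usp18 was not tested.

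Of the nearest tested genes, Tuba8, 39.6 kb from Usp18 between the middles of the genes, rose with it, by 1.71 in Stat5b-/- (adjusted p = 2.22e-07, edgeR's quasi-likelihood test) and 0.58 in Stat5a-/- cells (adjusted p = 0.00338), while M6pr, the nearest tested gene on the other side but 1055 kb away, had 0.045 in Stat5b-/- against wt. Next to Herc6, Pyurf rose by 0.67 and Ppm1k had 0.41 (adjusted p = 0.0994). Agrn, next to Isg15, fell by 0.91 and Timm10, next to Ube2l6, by 0.72 in Stat5b-/- cells. Values in Stat5b-/- against wt were -0.44 for AW011738, 0.29 for Traip, -0.14 for Inka1 and -0.30 for Clp1 at the other sides.

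**Figure D5:**
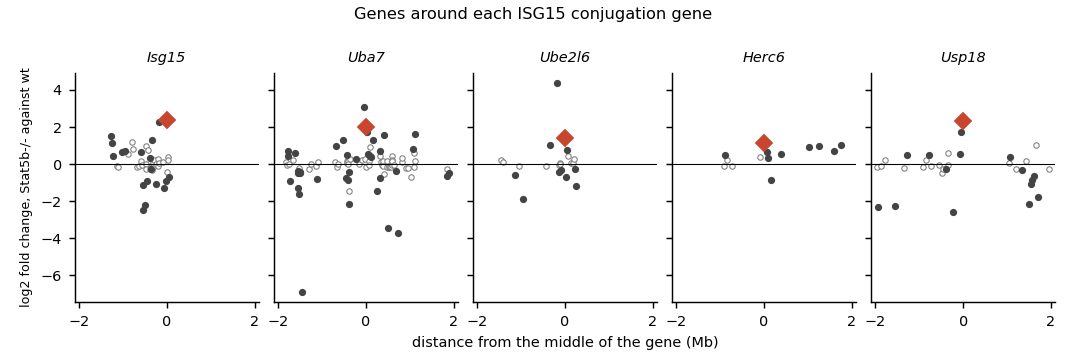
Log2 fold change in Stat5b-/- against wt (y axis) of tested genes within 2 Mb (x axis, distance from the middle of the gene), filled at an adjusted p under 0.05, with each ISG15 conjugation gene as a red diamond. Isg15, Herc6 and Usp18 lie above all their neighbours, whereas 1 neighbour each lies above Uba7 and Ube2l6.

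Across the 9 libraries the 5 genes followed each other closely, with Pearson correlations of log2 normalized CPM from 0.806 (Ube2l6 and Herc6) to 0.995 (Ube2l6 and Usp18) over 10 pairs. The libraries share 3 lines, so these values mostly follow the means of the lines, and between 76 genes (Isg15) and 216 genes (Usp18) of 13851 reached 0.95 with a member. The most alike genes were Gm4951, Tmem256 and Ccdc125 for Isg15 (0.992 to 0.985), and Nlrc5, Hrh2 and St6gal1 for Uba7 (0.993 to 0.991). For Ube2l6 they were Usp18, Zap70 and Nlrx1 (0.995 each), for Herc6 Mndal, Rb1 and Rgmb (0.992 to 0.987), and for Usp18 Ube2l6, Cers4 and Irf9 (0.995 to 0.994). Zap70 is among the T-lineage markers, with 7.90 normalized CPM in wt, 9.86 in Stat5a-/- and 40.1 in Stat5b-/- cells. By Pearson correlation the E2 and the protease thus resembled each other more than either resembled the modifier, at 0.938 for Ube2l6 with Isg15 and 0.946 for Usp18 with Isg15. Isg15 had as few as 15 reads in a wt library, so its correlations are less precise.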

How the data were processed

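RNA-seq libraries of 3 BCR/ABLp185+ cell lines (wt, Stat5a-/- and Stat5b-/-, 3 technical replicates each, 50 bp single-end reads) were analysed. The authors trimmed reads, mapped them with STAR to GENCODE M13 (GRCm38), counted them on union gene models with featureCounts 1.5.1 without a strand option, and deposited the raw counts of 50686 genes. A GENCODE M21 table named 50376 of them. Counts were tested with edgeR 4.0.16 in R 4.3.3 (TMM, filterByExpr, glmQLFit and glmQLFTest on all 9 libraries, Benjamini-Hochberg adjustment); standard errors divide the size of the log2 fold change by the square root of the F statistic. Ratios used counts plus 0.5. Steps were tested on simulated data. The genes and lists were chosen with earlier results of these data known. Named were the 5 genes, Stat5a, Stat5b, all other genes of ISG15 enzymes and of its integrin receptor, up to 3 called genes of each other list with the largest change in Stat5b-/- against wt, Uba1, Ube2l3 and Herc3, the nearest tested genes, and the 3 most alike genes. A gene that this rule names in the UFM1 list is not reported here. Alternatives were DESeq2 1.42.0, RLE normalization, other filters, fits of the 2 lines compared, each library left out, a replicate block and a T-lineage covariate. Added after seeing the data were a GC offset alone and a GC offset with the replicate block. Reads carry no molecular identifiers, so the precision at low counts is limited further than counting error alone. The human samples were not analysed here.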

Additional observations from a re-analysis of the deposited data

Results flagged for a closer look

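The knockout lines differed from each other directly, by edgeR's quasi-likelihood test of Stat5b-/- against Stat5a-/- with Benjamini-Hochberg adjustment, for 4 of the 5 ISG15 conjugation genes and for 3 of the 9 other tested genes linked to ISG15 (the proteases Usp2 and Usp14 and the integrin chain Itgb2), beside 16.4% of all genes called higher and 17.5% called lower, so that the share of these 9 genes is close to that of all genes. All 3 libraries of Stat5b-/- lay above all 3 of Stat5a-/-, as they did for 22.3% of all genes, for Usp18 (log2 fold change 1.91, adjusted p = 1.11e-06), Isg15 (1.41, adjusted p = 4.40e-04), Ube2l6 (1.20, adjusted p = 2.83e-06) and Uba7 (1.01, adjusted p = 1.22e-04). Of the others, Usp14 had a log2 fold change of -0.96 (adjusted p = 2.29e-05), Usp2 of -0.79 (adjusted p = 0.00796) and Itgb2 of 0.30 (adjusted p = 0.0335). Itgb2 lost its call under 10 of 18 alternatives, namely without wt replicate 3 (adjusted p = 0.0575), without each Stat5a-/- replicate (0.0687, 0.118 and 0.0560), without Stat5b-/- replicate 1 or 3 (0.107 and 0.0796), with the replicate block, without a filter, with only the 2 lines compared and with the T-lineage covariate. Usp2 lost its call with the T-lineage covariate (adjusted p = 0.245).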

How the results depend on the processing

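The 5 genes were called higher in Stat5b-/- against wt under 17 of 18 alternatives, and 4 were with the T-lineage covariate, where Herc6 lost its call. In Stat5a-/- against wt the count lay between 1 and 3 when each library was left out in turn, and the 1 gene called without wt replicate 3 and without Stat5a-/- replicate 1 was Uba7. It was 4 with the GC offset, 2 with RLE normalization and 2 with the replicate block, in which Herc6 had an adjusted p of 0.0613, and 2 with the T-lineage covariate. The block changed no other call of the 5 genes, and libraries with the same number did not deviate together (mean correlation -0.088 over 9 pairs, 0.044 over 18 pairs with different numbers). In Stat5b-/- against Stat5a-/- Herc6 turned to -0.082 with the T-lineage covariate, and it gained a call, making 5 of 5, without a filter, without wt replicate 1 and with the GC offset (adjusted p = 0.0282, 0.0446 and 0.0406). The count of ISG15 substrates called lower in Stat5a-/- against wt was 1 with the replicate block, beside 3 without it. With each library left out, the ratio of Isg15 to Uba7 in Stat5a-/- against wt ran from -0.27 to 0.25 and that of Isg15 to Usp18 in Stat5b-/- against wt from -0.15 to 0.29. The T-lineage covariate took genes called higher among all tested from 3348 to 1146, and lower from 3049 to 1058, in Stat5b-/- against wt, and from 2269 to 786 and 2429 to 1067 in Stat5b-/- against Stat5a-/-. The cause of these differences was not tested.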

Other observations

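Marker genes of other blood cells were read as fixed lists, beside 24.2% of all genes called higher and 22.0% called lower in Stat5b-/- against wt. The sum of 7 NK markers lay between 74.8 and 108 normalized CPM in wt, 97.3 and 119 in Stat5a-/- and 133 and 210.2 in Stat5b-/- libraries, and 4 of the 5 tested were called higher and 1 lower in Stat5b-/- against wt by edgeR's quasi-likelihood test. Nkg7, of cytotoxic granules, and Eomes, a factor of cytotoxic lymphocytes, rose by 1.13 and 1.10 on the log2 scale, and Klrb1c, the NK1.1 antigen, fell by 2.65. The sum of 8 monocyte and macrophage markers was 26.1 to 27.6 normalized CPM in wt, 19.9 to 21.1 in Stat5a-/- and 30.1 to 36.5 in Stat5b-/- libraries, with 3 of 5 tested called higher and 1 lower in Stat5b-/- against wt. Lyz2 and Csf1r rose by 1.07 and 1.09, and the Fc receptor gene Fcgr1 fell by 3.06. Csf1r had 7 to 14 reads in the wt libraries and Fcgr1 1 to 5 in the Stat5b-/- libraries, so that single reads matter.

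Plasmacytoid dendritic cells are a known source of type I interferon, and the sum of their 6 markers was 154 to 171 normalized CPM in wt, 154 to 159.6 in Stat5a-/- and 159.6 to 162.5 in Stat5b-/- libraries. Of the 5 tested, 3 were called higher and 1 lower in Stat5b-/- against wt (2 lower without Stat5b-/- replicate 2), with 1.33 for Runx2, 1.14 for Ccr9 and -1.08 for Bst2, an antiviral tether that interferon commonly induces. The 8 granulocyte markers had at most 3 reads each in every library. The sum of 8 erythroid markers was 11.5 to 14.1 normalized CPM in wt, 11.8 to 14.6 in Stat5a-/- and 2.81 to 3.96 in Stat5b-/- libraries. Only 2 of the 8 were tested, and Hbb-bt fell by 2.31 and Klf1 by 1.81 on the log2 scale in Stat5b-/- against wt. Klf1 had at most 8 reads in a Stat5b-/- library. Hba-a1 and Hba-a2, with few reads, had means of 0.23 and 0.22 normalized CPM in Stat5b-/- and 0.036 and 0.034 in wt cells. With the T-lineage covariate 0 of the NK, monocyte and plasmacytoid dendritic markers were called higher in Stat5b-/- against wt.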
